A study of Rattus norvegicus with 6 samples.

Results

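The genes of this report are 38 genes of the endoplasmic reticulum (ER) that fold secreted proteins, degrade those that fail to fold, sense the resulting stress and move cargo in and out of the compartment. They were chosen by name, as a list of ER chaperones and unfolded protein response genes, out of the 21857 gene symbols of the count table. Of the 38 genes, 37 stood in the table under the listed symbol, and Ero1l stood under its current RefSeq symbol, Ero1a. The 37 genes other than Derl3 all had at least 10 counts in at least 3 libraries and entered the test, which covered 12941 genes in all. Derl3, a derlin family member, had no count in any of the 6 libraries and was not tested. A listed 0 does not by itself show absence here, because Preb, an ER export factor of all cells, was also listed at 0 in every library.

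The cells were cardiac fibroblasts of newborn rats (NRCFs), grown as primary cultures from hearts taken within 3 days of birth and profiled by RNA-seq. The design text gives the rats as Sprague-Dawley, whereas the strain label of the samples reads "Noway". The 3 Vector libraries, whose genotype label is WT, came from NRCFs transfected with the empty plasmid. The 3 libraries labelled FTO overexpression came from NRCFs transfected with a plasmid of rat FTO, an enzyme that removes the N6-methyladenosine mark from RNA. Cells were harvested 48 h after transfection. The study reports a check of FTO transfection by qRT-PCR and at the protein level, without saying that these libraries were checked. Both groups were thus transfected. Whether hearts were pooled and whether the replicates came from separate isolations is not given in the sources used here, so the p-values measure the spread between these libraries, which may be technical.

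Proteins that enter the secretory pathway are threaded into the ER by the Sec61 translocon and folded there by the chaperone BiP (Hspa5), by the lectin chaperones calnexin and calreticulin, and by disulfide isomerases that are re-oxidised by Ero1. Chains that do not fold are extracted and degraded through the Hrd1-Sel1l complex. When unfolded chains accumulate, the sensors Ire1 (Ern1), Perk (Eif2ak3) and Atf6 start the unfolded protein response. Ire1 splices the Xbp1 transcript, Perk slows translation and raises Atf4 and then Chop (Ddit3), and Atf6 is cut in the Golgi to release a transcription factor. Fibroblasts are heavy users of this machinery because they secrete collagen and fibronectin. Splicing of Xbp1, cleavage of Atf6 and phosphorylation cannot be read from gene counts.

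Some promoters of this pathway carry the ER stress response element (ERSE), which Atf6 and spliced Xbp1 bind together with NF-Y. These elements are shown because genes that carry them and genes that do not are described side by side below. The elements were sought as exact letters on both strands of RefSeq promoters of the GRCr8 rat build, from 250 bases before to 50 bases after the start site, and 29 of the 38 genes had such a promoter. ERSE, with the letters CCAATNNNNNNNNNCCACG, was present in 8 of these 29 promoters (27.6%) and in 21 of all 27457 promoters (0.0765%). ERSE-II, with the letters ATTGGNCCACG, was present in 3 of the 29 (10.3%) and in 17 of all promoters (0.0619%). The ERSE genes included Hspa5, Hsp90b1, Calr, Dnajc3, Creld2, Xbp1 and Derl3, and the ERSE-II genes were Dnajb11, Hyou1 and Herpud1. Of 106 promoters of further genes of the same machinery, listed below by function, 1 held an ERSE and 0 held an ERSE-II. Each line below gives the element with 10 bases on each side, and the fixed letters of the element are in capitals. Positions are counted from the start site as base 1, with no base 0, and the strand is the one on which the letters are printed.
Hspa5, ERSE at bases -43 to -25, chr3:38452963-38453001, plus strand: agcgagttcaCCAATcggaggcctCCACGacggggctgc
Hsp90b1, ERSE at bases -176 to -158, chr7:23012441-23012479, minus strand: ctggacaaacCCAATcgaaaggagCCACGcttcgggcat
Hsp90b1, ERSE at bases -72 to -54, chr7:23012337-23012375, plus strand: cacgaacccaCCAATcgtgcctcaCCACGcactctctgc
Calr, ERSE at bases -232 to -214, chr19:40213125-40213163, minus strand: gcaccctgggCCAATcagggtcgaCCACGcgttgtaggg
Dnajc3, ERSE at bases -133 to -115, chr15:102432524-102432562, plus strand: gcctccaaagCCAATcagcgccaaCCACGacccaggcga
Xbp1, ERSE at bases -65 to -47, chr14:84604548-84604586, plus strand: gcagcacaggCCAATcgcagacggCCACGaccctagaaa
Dnajb11, ERSE-II at bases -10 to 1, chr11:91672790-91672820, minus strand: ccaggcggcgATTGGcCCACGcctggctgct
Herpud1, ERSE-II at bases -124 to -114, chr19:10614811-10614841, minus strand: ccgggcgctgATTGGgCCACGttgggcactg
Hyou1, ERSE-II at bases -88 to -78, chr8:53602784-53602814, minus strand: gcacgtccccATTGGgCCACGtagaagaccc

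Hyou1 held a second ERSE-II at bases -188 to -178, and the letters of the core unfolded protein response element, TGACGTGG, overlapped it at bases -191 to -184. That core was present in 187 of all promoters (0.681%) and in no other gene of the list. Herpud1 was the only one of the 29 promoters with the Atf4-C/EBP composite element, TGATGNAA, which 1141 of all promoters held (4.16%). It lay on the strand opposite to the gene, upstream of the ERSE-II.
Herpud1, composite element at bases -184 to -177, chr19:10614874-10614901, plus strand: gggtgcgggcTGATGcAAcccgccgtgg
The cAMP response element, TGACGTCA, which reads the same on both strands, was present in Ppp1r15a and in 549 of all promoters (2.0%). A match describes these letters only, and a promoter without a match says nothing of a factor.

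Before the members, the libraries were compared as a whole. Total counts ranged from 13178952 to 17857999 per library, and TMM factors, which scale libraries to a common composition, ranged from 0.995 to 1.005. Fto itself was at 87.8, 89.6 and 87.4 CPM (counts scaled to library size and TMM-normalised, as are all levels here) in Vector replicates 1, 2 and 3 and at 93.2, 90.8 and 92.9 CPM in the libraries labelled FTO. Its log2 fold change was 0.06 (SE 0.0468), and it was not called by the quasi-likelihood test of edgeR (adjusted p = 0.239). The libraries are therefore named by their label. Of the 12941 genes tested, 65.9% were called at an adjusted p under 0.05, 33.2% as higher and 32.8% as lower with the label FTO, and the median absolute log2 fold change was 0.36. The chi-square per degree of freedom between libraries of a group was from 1.58 to 8.38, so no pair agreed within sampling noise. CPM values carry no correction for transcript length, so levels are compared between libraries, never between genes.

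Markers of several cell types moved with the label. In bulk RNA, fewer cells of a type and less RNA per cell cannot be told apart. Markers of the labelled cell type were present in all libraries, with the 10 fibroblast markers summing to 55168 to 56321 CPM in the Vector libraries and 35937 to 38608 CPM in those labelled FTO. Of these, 5 were higher (Dcn and Lum among them) and 4 were lower (Col1a1 and Col3a1 among them). The fall of the sum lay mainly in Col1a1, at a mean of 25809 against 8268 CPM, and Col3a1, at 10699 against 3338 CPM. The 10 macrophage markers summed to 636 to 661 against 155 to 176 CPM, with 9 of 10 lower. The 10 smooth muscle and pericyte markers, which include Acta2 and Tagln of activated fibroblasts, summed to 10041 to 10303 against 2012 to 2076 CPM. Of the 9 tested, 6 were lower and 3 were higher, with log2 fold changes from -3.86 to 4.89. Such sums follow the genes with most reads. The 9 measured cardiomyocyte markers summed to 1513 to 1546 against 2281 to 2325 CPM, with 7 of 8 tested genes higher. The part of these shifts in the results on ER genes was not tested. The 10 endothelial markers summed to 126 to 133 against 121 to 126 CPM, a sum that rests mainly on Flt1, which was lower. Of the 7 endothelial markers tested, 4 were higher (Cdh5, Kdr, Tek and Egfl7) and 2 were lower, and Cldn5 was at 0 in all libraries. Those of B and plasma cells, the cells best known for an expanded ER, summed to under 2 CPM in every library, from 1.24 to 1.73 and from 1.05 to 1.79 CPM, with Ms4a1 at 0 in all libraries and 6 of 10 at or below 3 counts in each.

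The whole list was split in direction. Of the 37 genes tested, 8 rose (21.6%) and 14 fell (37.8%) with the label FTO, and 15 did not pass the test. With 59.5% of its genes called, the list was near the 65.9% of all genes, which is no result about the list. The median log2 fold change was -0.02, against 0.001 over all genes, and the median absolute change was 0.26. Under the threshold of the study, a change of at least 2-fold with an unadjusted p under 0.05, 2 genes were higher, Ero1l and Ddit3, and 3 were lower, Pdia5, Herpud1 and Creb3l2. This threshold called 10.4% of all genes higher and 9.27% lower. In 27 of the 37 genes the 3 Vector values and the 3 values labelled FTO did not overlap, beside 70.3% of all genes. When a change beyond 1.2-fold was tested for (glmTreat), 4 genes were higher (Sdf2l1, Ero1l, Ern1 and Ddit3) and 9 were lower, with 21.9% of all genes called in each direction.

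**Figure D1:**
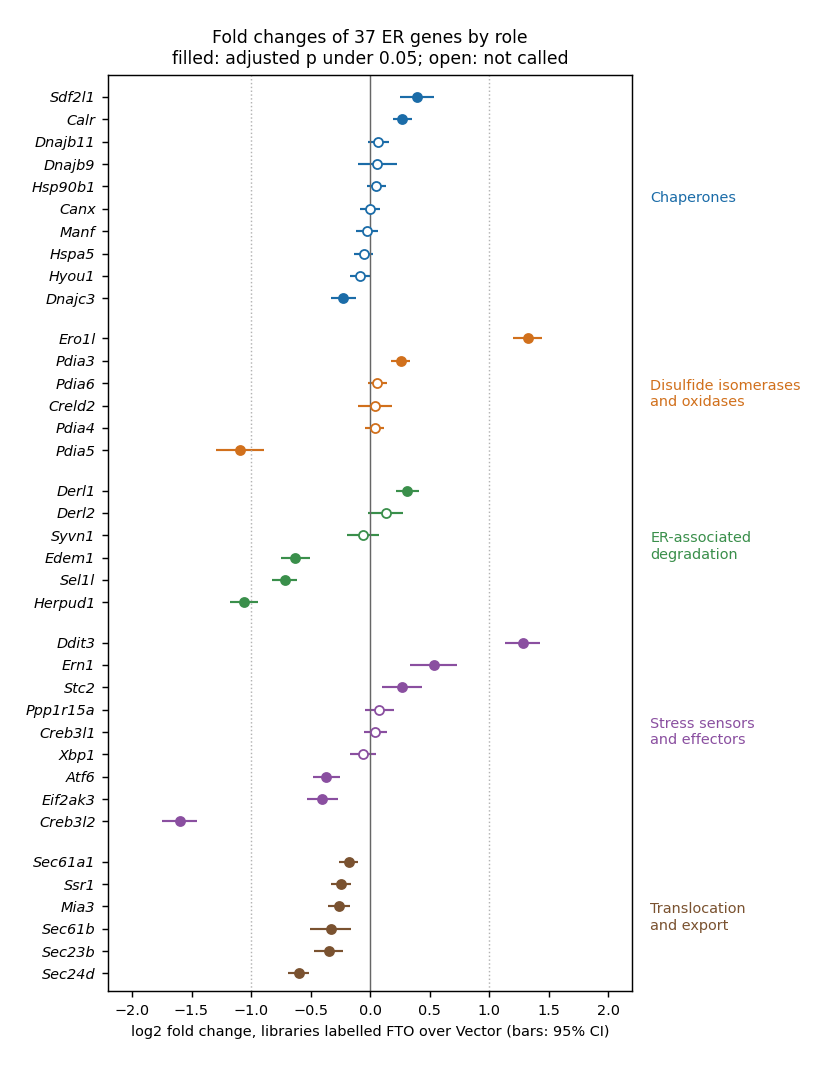
Log2 fold change of the 37 ER genes tested, libraries labelled FTO over Vector, by role. Points are edgeR estimates with 95% confidence intervals (n = 3 libraries per group), filled where the adjusted p is under 0.05, and dotted lines mark 2-fold changes. Of the 10 chaperones 7 are open, Ero1l and Ddit3 lie to the right of the 2-fold line, Pdia5, Herpud1 and Creb3l2 to the left of it, and the 6 translocation and export genes are all filled and below 0.

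The chaperones had the smallest median absolute log2 fold change of the 5 roles, 0.06 over 10 genes. Of these, 2 were higher (20%, against 33.2% of all genes), 1 was lower (10%, against 32.8%) and 7 did not pass the test. Hspa5, the Hsp70 chaperone of the ER and the standard readout of ER stress, was at 1031, 1049 and 1049 CPM in Vector replicates 1 to 3 and at 1029.8, 968 and 1011 CPM in replicates 1 to 3 labelled FTO. Every Vector value was above every value labelled FTO, by a margin that did not pass the test (fold 0.962, 95% CI 0.908 to 1.02, adjusted p = 0.211). Hsp90b1, the Hsp90 chaperone Grp94, was at 1328, 1320.2 and 1322 CPM against 1386, 1339 and 1389.7 CPM. Its groups did not overlap either, in the other direction, and its interval was similarly narrow (fold 1.04, 95% CI 0.982 to 1.09, adjusted p = 0.23). Hyou1, a large Hsp70-like protein that exchanges the nucleotide of BiP, was at 291 ± 0.877 against 273 ± 3.95 CPM (mean ± SD, n = 3) and lay just outside the threshold (adjusted p = 0.0557). It passed the threshold when FTO replicate 3 was left out (adjusted p = 0.0263), and under upper quartile scaling both Hyou1 (adjusted p = 0.00692) and Hspa5 (adjusted p = 0.0324) did.

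Calreticulin and calnexin, the soluble and the membrane-bound lectin chaperone that bind the same sugar, differed in what was measured. Calr was at 1683, 1647 and 1656 CPM in the Vector libraries and at 2030.0, 1955 and 2022 CPM in those labelled FTO. All 3 values labelled FTO lay above all 3 Vector values, and Calr was higher by a log2 fold change of 0.27 (SE 0.0367, fold 1.2, adjusted p = 1.14e-05). Canx was at 1174, 1189.6 and 1198 CPM against 1218, 1135 and 1207 CPM. Its groups overlapped, and the interval of its fold, 0.943 to 1.06, lay below that of Calr, 1.14 to 1.27. The difference between both genes was not tested.

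Among the co-chaperones, Sdf2l1, which works with Erdj3 and BiP, was at 28.5, 29.3 and 28.0 CPM against 37.9, 39.3 and 35.7 CPM. The groups were apart, and Sdf2l1 was higher by a log2 fold change of 0.39 (SE 0.0677, fold 1.31, adjusted p = 1.17e-04). Dnajc3, a co-chaperone of BiP that can also restrain Perk, was at 101, 101 and 103 CPM against 82.4, 89.2 and 88.7 CPM. It was the lower one of the group, by a log2 fold change of -0.23 (SE 0.0497, fold 0.855, adjusted p = 9.49e-04). Dnajb9 (Erdj4), a strong Xbp1 target, was at 38.2, 39.9 and 32.9 CPM against 40.0, 36.9 and 38.7 CPM, and its groups overlapped (fold 1.04, 95% CI 0.931 to 1.17, adjusted p = 0.501). Dnajb11 (Erdj3) was at 156 ± 0.953 against 164 ± 1.12 CPM (fold 1.05, 95% CI 0.987 to 1.11, adjusted p = 0.157). Manf, a secreted protein that holds BiP and its clients together and leaves cells under stress, was at 149 ± 2.75 against 146 ± 3.39 CPM (fold 0.983, 95% CI 0.922 to 1.05, adjusted p = 0.629). None of these last 3 genes passed the test.

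The 6 disulfide isomerases and oxidases held the largest rise of the list, in Ero1l, beside one of its larger falls, in Pdia5. Ero1l, the oxidase that recharges the isomerases and passes electrons to oxygen, was at 72.1, 79.0 and 80.5 CPM in the Vector libraries and at 204, 181 and 193 CPM in those labelled FTO. The lowest value labelled FTO was more than 2-fold above the highest Vector value. Ero1l was higher by a log2 fold change of 1.32 (SE 0.0564, fold 2.5, adjusted p = 1.31e-11). In the RefSeq table the span of Ero1a lies inside that of Rps10l6, for which the count table has no row, and the use of strand is not given, so reads of the pair could not be told apart.

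Pdia5, a member of the same isomerase family as Pdia3 and Pdia4, moved the other way, from 30.7, 28.5 and 28.9 CPM to 15.8, 12.8 and 12.7 CPM. Every Vector value was above every value labelled FTO, and the gene was lower by a log2 fold change of -1.10 (SE 0.0937, fold 0.468, adjusted p = 6.15e-08). Pdia3 (Erp57), the isomerase that calnexin and calreticulin recruit to glycoproteins, was at 1030.0, 992 and 1033 CPM against 1236, 1213 and 1198 CPM. It was higher by a log2 fold change of 0.26 (SE 0.0376, fold 1.19, adjusted p = 2.43e-05), close to the fold of Calr. Pdia4 was at 428 ± 2.69 against 439 ± 11.1 CPM (fold 1.03, 95% CI 0.969 to 1.09, adjusted p = 0.419) and Pdia6 at 581 ± 4.23 against 605 ± 10.3 CPM (fold 1.04, 95% CI 0.985 to 1.1, adjusted p = 0.181). Creld2, a cysteine-rich ER protein often used as a marker of ER stress, was at 37.3 ± 1.49 against 38.3 ± 1.9 CPM (fold 1.03, 95% CI 0.931 to 1.13, adjusted p = 0.629). Pdia4, Pdia6 and Creld2 did not pass the test.

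**Figure D2:**
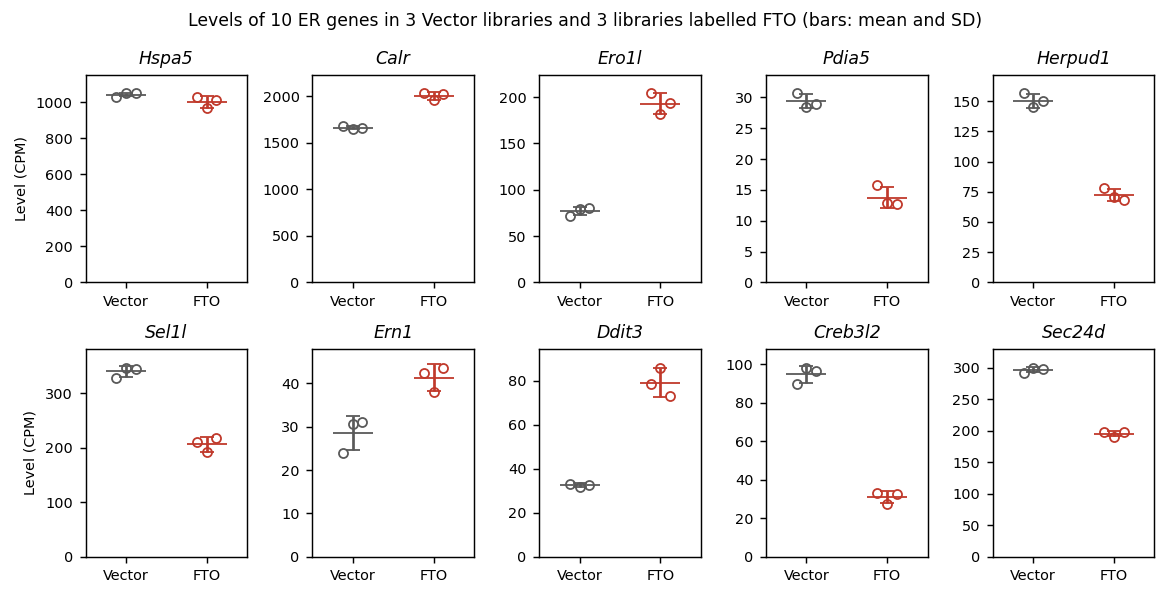
Level of 10 ER genes in each library, in TMM-normalised CPM on axes that start at 0. Circles are single libraries (3 Vector, 3 labelled FTO), long lines are means and bars are SDs. Ero1l and Ddit3 are more than 2-fold higher with the label FTO, Pdia5, Herpud1 and Creb3l2 more than 2-fold lower in the mean, and Hspa5 lies between 968 and 1049 CPM in all 6 libraries.

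Of the 6 degradation genes tested, 3 were lower, 1 was higher and 2 did not pass, with a median log2 fold change of -0.34. The 66.7% called was near the 65.9% of all genes. Herpud1, which brings substrates and ubiquilins to the Hrd1 complex and is among the first genes that ER stress raises, was at 156, 145 and 150.1 CPM against 77.9, 70.5 and 68.4 CPM. The groups were far apart, and Herpud1 was lower by a log2 fold change of -1.06 (SE 0.056, fold 0.48, adjusted p = 1.83e-10). Sel1l, the adaptor that keeps Hrd1 stable, was at 328, 347 and 345 CPM against 209.8, 192 and 218 CPM. It was lower by a log2 fold change of -0.72 (SE 0.0498, fold 0.608, adjusted p = 4.99e-09). Edem1, which trims and hands over misfolded glycoproteins, was at 124, 129.6 and 128 CPM against 81.6, 75.6 and 88.8 CPM. The groups did not overlap, with a log2 fold change of -0.63 (SE 0.0574, fold 0.647, adjusted p = 1.36e-07).

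Syvn1, the ubiquitin ligase Hrd1 itself, was at 54.2, 56.0 and 52.9 CPM against 51.8, 56.3 and 48.8 CPM. Its groups overlapped, and it did not pass the test (fold 0.96, 95% CI 0.874 to 1.05, adjusted p = 0.427). Derl1, a rhomboid-like channel protein of retrotranslocation, was the higher gene of the group, at 110.4, 112 and 106 CPM against 135, 133 and 138 CPM. It was higher by a log2 fold change of 0.31 (SE 0.0452, fold 1.24, adjusted p = 2.28e-05). RefSeq names 5 pseudogenes of Derl1, so part of its count is uncertain. Derl2 was at 41.8, 47.3 and 45.7 CPM against 49.9, 51.8 and 46.1 CPM. It did not pass in the 6 libraries (fold 1.09, 95% CI 0.99 to 1.21, adjusted p = 0.104) but did without FTO replicate 3 (adjusted p = 0.030).

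The 3 proximal sensors did not move together. Ern1 (Ire1) was at 24.0, 30.7 and 31.0 CPM in the Vector libraries and at 42.5, 37.9 and 43.6 CPM in those labelled FTO. The groups did not overlap although Vector replicate 1 was below the other two, and Ern1 was higher by a log2 fold change of 0.53 (SE 0.092, fold 1.45, adjusted p = 1.14e-04). Eif2ak3 (Perk) was at 49.3, 47.2 and 46.3 CPM against 34.7, 36.8 and 36.5 CPM. All 3 Vector values were above those labelled FTO, with a log2 fold change of -0.40 (SE 0.0614, fold 0.757, adjusted p = 3.57e-05). Atf6 was at 117, 121 and 116 CPM against 92.2, 85.1 and 95.8 CPM. The groups were apart, with a log2 fold change of -0.37 (SE 0.0523, fold 0.775, adjusted p = 1.70e-05). Xbp1, the substrate of Ire1 and a target of Atf6, was at 119, 109.8 and 122 CPM against 116, 109.5 and 111 CPM. Its groups overlapped, and total Xbp1 did not pass the test (fold 0.96, 95% CI 0.89 to 1.04, adjusted p = 0.32). These counts sum spliced and unspliced Xbp1.

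The other transcription factors and effectors ranged widest. Ddit3 (Chop), a factor linked to cell death under lasting stress, was at 33.2, 31.7 and 32.8 CPM against 78.6, 85.9 and 73.0 CPM. The lowest value labelled FTO was more than 2-fold above the highest Vector value. Ddit3 was higher by a log2 fold change of 1.28 (SE 0.0678, fold 2.43, adjusted p = 1.82e-10). Its span shares 62 bases with that of Mars1, a tRNA synthetase gene that stood in the table as Mars and fell by 0.77 on the log2 scale, from 186 to 109 CPM, the opposite direction. Ddit3 also overlaps a protein-coding gene known only by a LOC number, whose level was not examined. Creb3l2 (Bbf2h7), a membrane-bound factor cut like Atf6 that drives the export gene Sec23a in cartilage, was at 89.9, 98.3 and 96.4 CPM against 33.2, 27.6 and 32.7 CPM. It was lower by a log2 fold change of -1.60 (SE 0.070, fold 0.33, adjusted p = 1.74e-11), the largest fall of the list. Its relative Creb3l1 (Oasis), known for collagen I transcription in bone, was at 144, 143 and 151 CPM against 153, 154 and 145 CPM. The groups overlapped, and Creb3l1 did not pass the test (fold 1.03, 95% CI 0.963 to 1.1, adjusted p = 0.41).

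Ppp1r15a (Gadd34), the phosphatase subunit that reverses the block of Perk on translation and a target of Chop and Atf4, was at 68.2, 61.5 and 63.6 CPM against 68.9, 67.3 and 67.6 CPM. The groups overlapped, and it did not pass (fold 1.05, 95% CI 0.972 to 1.15, adjusted p = 0.234). Stc2, a secreted glycoprotein raised through Perk, was at 25.4, 27.3 and 26.5 CPM against 33.8, 28.5 and 32.8 CPM. It was higher by a log2 fold change of 0.27 (SE 0.0789, fold 1.2, adjusted p = 0.00794), and FTO replicate 2 lay nearest to the Vector values. The call of Stc2 was lost without FTO replicate 1 (adjusted p = 0.0552).

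**Figure D3:**
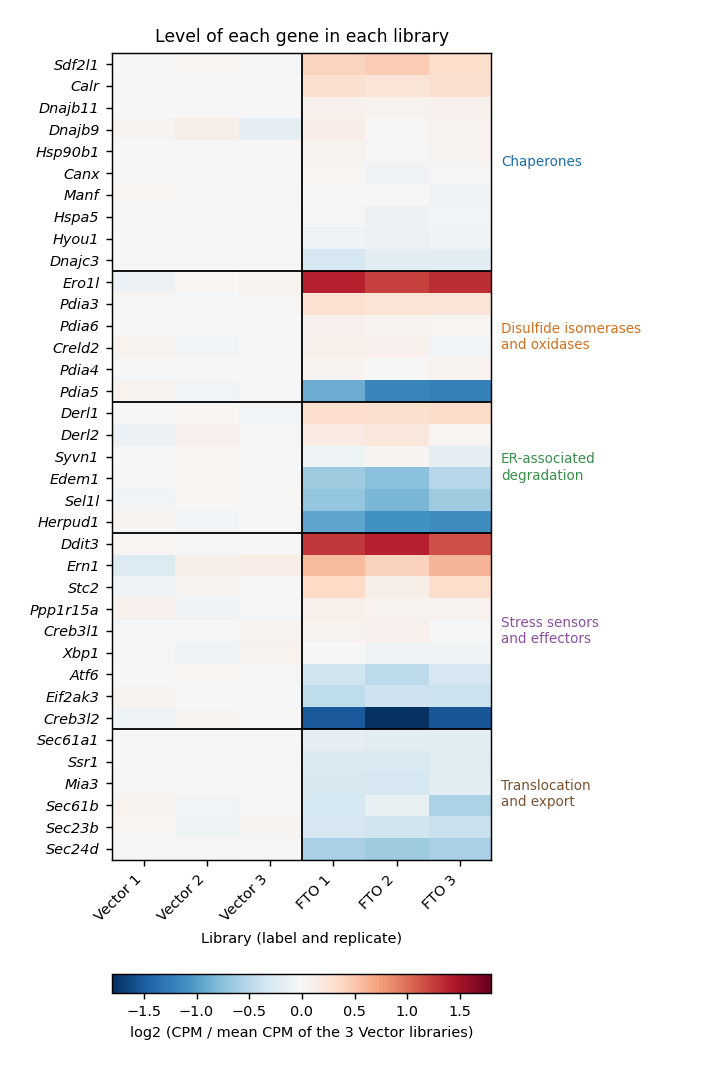
Log2 ratio of the CPM of each of 37 ER genes in each of the 6 libraries to the mean of the 3 Vector libraries. Rows are genes by role, and columns are libraries. The columns labelled FTO show Ero1l and Ddit3 in red, Pdia5, Herpud1, Sel1l, Edem1 and Creb3l2 blue, most chaperones near white and the 6 translocation and export genes pale to middle blue, with Sec61b uneven between libraries.

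All 6 genes of translocation and export were lower, beside 32.8% of all genes called lower. The groups did not overlap in any of the 6, but neither did they in 70.3% of all genes. The folds were from 0.659 for Sec24d to 0.882 for Sec61a1, with a median log2 fold change of -0.30. Sec24d, a COPII coat subunit that selects cargo and is needed for procollagen export in the skeleton, was at 292, 299.8 and 297 CPM against 198, 190.1 and 198 CPM. The groups did not overlap, with a log2 fold change of -0.60 (SE 0.0404, fold 0.659, adjusted p = 3.34e-09). Sec23b, the coat subunit that pairs with Sec24, was at 82.3, 76.0 and 83.3 CPM against 65.4, 63.1 and 61.2 CPM. All 3 Vector values were above those labelled FTO, with a log2 fold change of -0.35 (SE 0.0559, fold 0.785, adjusted p = 5.55e-05). Mia3 (Tango1), the receptor that loads procollagen at ER exit sites, was at 224, 221 and 219 CPM against 180.3, 178 and 193 CPM. The groups were apart, with a log2 fold change of -0.26 (SE 0.0438, fold 0.833, adjusted p = 7.93e-05).

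The 3 genes of the entry side were lower as well. Sec61a1, the pore of the translocon, was at 396, 394 and 399 CPM against 354, 348 and 347 CPM. It was lower by a log2 fold change of -0.18 (SE 0.0377, fold 0.882, adjusted p = 6.04e-04). Ssr1, the alpha subunit of the translocon-associated protein complex, was at 368, 367 and 374 CPM against 309.9, 306 and 318 CPM. The groups did not overlap, with a log2 fold change of -0.25 (SE 0.0388, fold 0.843, adjusted p = 4.70e-05). Sec61b, the small beta subunit of the channel, was at 118, 108 and 111 CPM against 90.6, 102 and 75.6 CPM. Its libraries labelled FTO were spread more than those of the other 5 genes, and it was lower by a log2 fold change of -0.33 (SE 0.0819, fold 0.794, adjusted p = 0.00229). Of the 6 genes, Sec23b and Sec24d passed the test against a 1.2-fold change, and the other 4 did not. That test called 21.9% of all genes lower.

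Summed over the genes of a role, CPM differed in direction as well. The 10 chaperones summed to 5979 ± 9.07 CPM in the Vector libraries and 6310 ± 146 CPM in those labelled FTO, and the gain of Calr alone, from 1662 to 2002 CPM, was larger than that of the sum. The isomerases and oxidases summed to 2171 ± 25.8 against 2504 ± 42.9 CPM. The degradation genes summed to 826 ± 10.8 against 598 ± 16.1 CPM, and the translocation and export genes to 1476 ± 9.32 against 1193 ± 5.25 CPM. The sensors and effectors summed to 675 ± 9.21 against 642 ± 10.5 CPM. The sum over all 38 genes was 11127 ± 43.5 against 11246 ± 207 CPM, a ratio of 1.01. These sums rest on the genes with most reads and were not tested.

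Genes with a stress element moved less in the median than genes without one, and Herpud1 stood apart among them. Of the 10 tested genes with an ERSE or ERSE-II, 1 was higher (Calr), 2 were lower (Dnajc3 and Herpud1) and 7 did not pass, with a median absolute log2 fold change of 0.06. Of the 18 genes whose promoters held neither, 3 were higher, 9 were lower and 6 did not pass, with a median absolute change of 0.30. Over all genes, 65.9% were called. Most genes with an element were chaperones, whose median absolute change was also 0.06, so element and role cannot be told apart here. Both medians describe these promoters only, with no test. The window of Ero1l was not in the promoter table, nor were those of Atf6, Ern1, Derl1, Manf, Pdia3, Pdia6, Sec61a1 and Sec24d. Genes that share an element also differed in level change. Hspa5 and Calr, both with the ERSE printed above, had folds of 0.962 and 1.2. Herpud1 and Hyou1, both with an ERSE-II, had folds of 0.48 and 0.94.

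To place the list in its pathway, 6 further lists with 127 genes of the same machinery were drawn up by function, and 115 of these were tested. Of the 115, 33 were higher (28.7%) and 48 were lower (41.7%), with a median log2 fold change of -0.08. The 70.4% called was near the 65.9% of all genes, of which 33.2% were higher and 32.8% lower. Among the 28 tested folding enzymes and glycan-linked chaperones, 7 were higher (25.0%) and 13 were lower (46.4%). P4hb, protein disulfide isomerase itself and the beta subunit of the collagen prolyl 4-hydroxylase, was at 1519.9, 1506 and 1507 CPM against 3855, 3859 and 3714 CPM. It was higher by a log2 fold change of 1.33 (SE 0.0371, fold 2.52, adjusted p = 6.67e-14), as large a rise as that of Ero1l. Serpinh1 (Hsp47), the collagen-specific chaperone, was at 2922, 2899 and 2960.3 CPM against 1179.8, 1148 and 1156 CPM. All 3 Vector values were above those labelled FTO, with a log2 fold change of -1.33 (SE 0.0367, fold 0.397, adjusted p = 5.85e-14). The other leading genes of this list were Cnpy3 (0.58), which assists Toll-like receptors, and Sdf2 (0.37), a paralog of Sdf2l1, on the higher side, and the prolyl isomerase Fkbp9 (-0.76) and the glucosyltransferase homolog Uggt2 (-0.74) on the lower side, as log2 fold changes.

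The list of the Perk-Atf4 arm and the integrated stress response also holds other kinases of the translation factor of Perk, Eif2ak2 among them. This list had the largest median absolute log2 fold change of the 6 lists, 0.81, and a median of -0.70. Of its 17 tested genes, 5 were higher (29.4%) and 10 were lower (58.8%). Over all genes, 33.2% were higher and 32.8% lower. Atf4, which Perk raises by translation and which drives Ddit3, was at 426, 421 and 426 CPM against 260.2, 276 and 246 CPM. The groups were apart, with a log2 fold change of -0.70 (SE 0.0453, fold 0.614, adjusted p = 2.00e-09). Its targets Trib3, a pseudokinase, at 46.2 ± 2.17 against 10.1 ± 2.03 CPM (log2 fold change -2.21), and Chac1, which degrades glutathione, at 30.4 ± 1.18 against 4.26 ± 0.995 CPM (-2.86), were lower too. Ddit3, listed among the members, was higher in the same libraries, the opposite direction to Atf4, Trib3 and Chac1. Atf3, another stress factor, was at 5.86 ± 0.80 against 4.63 ± 0.499 CPM on a mean of 76.5 counts and did not pass the test (adjusted p = 0.0724). Vldlr, a lipoprotein receptor, had the largest fall (-3.43). The largest increases were in Cebpb (2.12), a partner of Chop, in Eif2ak2 (1.94), the RNA-activated kinase Pkr, which acts on the same translation factor as Perk, and in Ddit4 (0.34), an inhibitor of mTORC1. Cebpb was uneven within the Vector group, at 21.2, 48.1 and 65.4 CPM in replicates 1 to 3.

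Of 17 tested genes of the COPII coat, cargo receptors and KDEL receptors, 3 were higher (17.6%, against 33.2% of all genes) and 11 were lower (64.7%, against 32.8%), with a median log2 fold change of -0.16. The largest falls were in Kdelr3 (-1.06), a receptor that returns ER proteins from the Golgi, and in the coat subunits Sec24a (-0.93) and Sec23a (-0.89). The higher genes were the cargo receptors Surf4 (0.37) and Tmed10 (0.14) and the coat GTPase Sar1b (0.24). The translocon, signal peptidase and oligosaccharyltransferase list had 6 of 23 genes higher and 6 lower (26.1% each). Its leading genes were Srp68 (0.35), Sec61g (0.29) and Ddost (0.25) on the higher side and Sec11c (-0.68), Ostc (-0.42) and Stt3a (-0.34) on the lower side. Sec61g is a subunit of the same channel as Sec61a1 and Sec61b and moved in the opposite direction to both.

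The degradation machinery outside the members had 8 of 21 genes higher (38.1%) and 7 lower (33.3%), near the shares of all genes, with a median log2 fold change of 0.03. The ubiquitin-conjugating enzyme Ube2g2 (0.44), the p97 cofactor Nploc4 (0.46) and Edem2 (0.31) led the higher genes. The Edem1 paralog Edem3 (-0.65), the Hrd1 partner Fam8a1 (-0.62) and the Herpud1 paralog Herpud2 (-0.51) led the lower ones. Among 9 tested sensors, proteases and related factors, 4 were higher (44.4%, against 33.2% of all genes) and 1 was lower (11.1%, against 32.8%). Traf2 (0.68), an adaptor of Ire1, Bloc1s1 (0.62), whose transcript Ire1 can cut, and Atf6b (0.35), the Atf6 paralog, were higher, and the protease Mbtps2 (-0.17), which cuts Atf6, was the lower one.

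**Figure D4:**
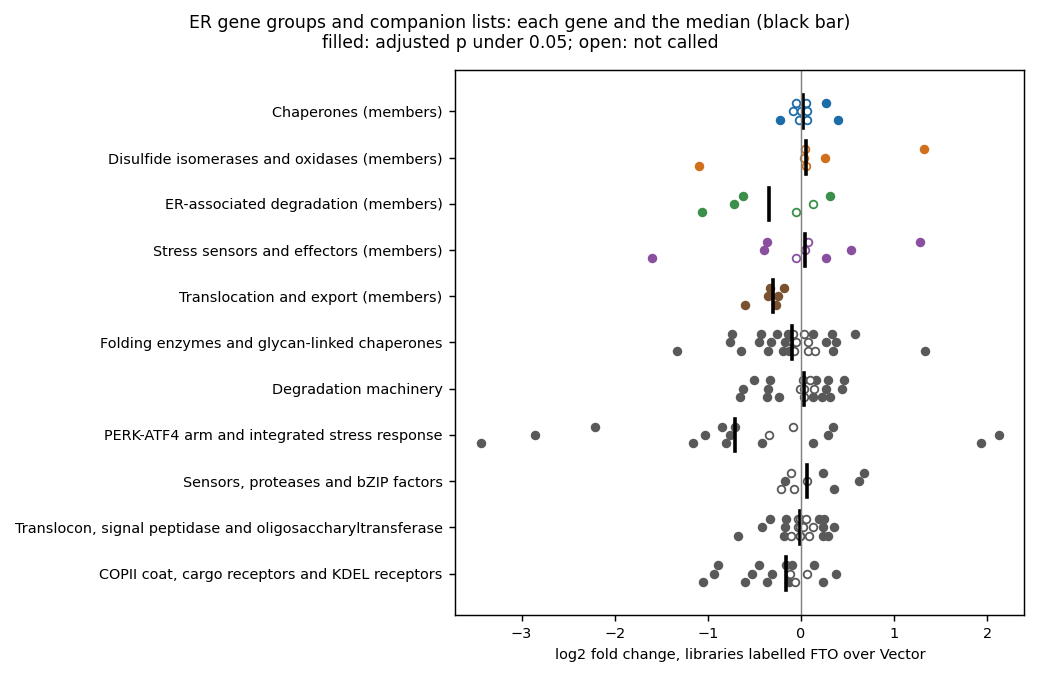
Log2 fold change of each gene tested (libraries labelled FTO over Vector, n = 3 per group) in the 5 roles of the ER genes and in the 6 companion lists. Points are genes, filled where the adjusted p is under 0.05, and black bars are medians. The list of the Perk-Atf4 arm and the integrated stress response is the widest, from -3.43 to 2.12, with its median at -0.70. The translocation and export members lie together between -0.60 and -0.18.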

How the data were processed

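RNA-seq was performed on 6 libraries of NRCFs, 3 Vector and 3 labelled FTO, grouped by the genotype label with replicate numbers from the titles. The values deposited by the authors are raw read counts in whole numbers, with 1 file for each library. The submitters' processing notes name Trimmomatic and the rn6 build. Which aligner, counter, annotation and strand setting were used is not given in the sources used here, so reads of overlapping genes could not be separated. In the gene annotation of RefSeq (GRCr8), 8 of the 38 genes share bases with a named protein-coding gene, and Derl1, Hsp90b1 and Pdia4 have named pseudogenes. Herpud1, Atf6 and Ddit3 overlap protein-coding genes known only by a LOC number, whose levels were not examined. Mia3 shares 3384 bases with Taf1a (log2 fold change -0.62) and Pdia3 shares 721 with Catsper2 (0.50). Both partners moved in the direction of the member, at lower CPM. Sec23b shares 31 bases with Rbbp9 (0.19), which moved in the opposite direction, as did Mars1 to Ddit3.

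From these counts, genes were filtered with filterByExpr (minimum count 10), scaled by TMM and compared with the two-sided quasi-likelihood test of edgeR 4.0.16 in R 4.3.3 without covariates. Benjamini-Hochberg adjustment was applied over 12941 genes. Each SE was derived from the log2 fold change and its F value, and intervals are 95% confidence intervals that cover the spread between libraries and counting error only. The RNA-seq methods of the study give a threshold without naming a test for it. The threshold was applied here with the unadjusted p-value. Deposited totals of 13178952 to 17857999 counts make 3 counts worth 0.168 to 0.227 CPM.

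The members, the lists and the tests were chosen with earlier results of these data known. Genes named outside the members were Fto, P4hb, Serpinh1, Atf4, Atf3, Trib3 and Chac1, and from each list up to 3 genes with the largest rise and up to 3 with the largest fall among those called, without overlap and averaging 100 counts or more. Preb, Mars1, Rps10l6, Taf1a, Catsper2, Rbbp9 and the markers Dcn, Lum, Col1a1, Col3a1, Acta2, Tagln, Flt1, Cdh5, Kdr, Tek, Egfl7, Cldn5 and Ms4a1 were picked after seeing their values. Pdia2, Mogs, Ufd1, Bbc3, Srprb, Sar1a and Ttn are not analysed here. Alternatives were DESeq2 1.42.0, limma-voom (limma 3.58.1), glmTreat, other scalings and filters, the replicate number as a block and leaving out each library. The fits were also run on simulated data with few changed genes and a fixed spread, unlike these data. Scaling and error rates in these data were therefore not tested by it. Promoter sequences were taken from RefSeq. One matched promoter site is not reported here.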

Additional observations from a re-analysis of the deposited data

How the results depend on the processing

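The 8 higher and 14 lower genes of the list were the counts under DESeq2, DESeq2 size factors, library size alone and each filter on low counts, and limma-voom gave 8 and 15. Leaving out 1 library gave 7 to 9 higher and 14 to 15 lower genes. Against a 1.2-fold change (glmTreat), 4 members were higher and 9 lower, counts that also exceed the 2 and 3 of the threshold of the study, and 11 of the companion genes were higher in place of 33 and 32 lower in place of 48, with 21.9% of all genes called in each direction. The genes that lost their call there were Calr, Dnajc3, Pdia3, Derl1, Stc2, Sec61a1, Sec61b, Ssr1 and Mia3. Upper quartile scaling moved the median of all genes to -0.05 and called Hspa5 (log2 fold change -0.10, adjusted p = 0.0324) and Hyou1 (adjusted p = 0.00692) lower, and limma-voom also called Hyou1 (adjusted p = 0.0458). The cause was not tested. Signs turned only in genes that were not called. The log2 fold change of Canx was 0.0071 with library size alone and between -0.026 and 0.032 when 1 library was left out, the ends being FTO replicates 1 and 2. That of Dnajb9 was between -0.022 and 0.12, the ends being Vector replicates 3 and 2. Under upper quartile scaling Pdia4, Creld2 and Creb3l1 were at -0.011, -0.0091 and -0.0032. Over all members and 16 alternatives, 570 of the values kept their direction and side of the threshold.

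Deviations of samples with the same replicate number correlated at r = 0.006, -0.087 and 0.044, and those with different numbers between -0.131 and 0.122. Because deviations were taken from the mean of each group of 3, these values are forced to balance around 0. Whether the numbers pair the samples cannot be told from them. With the replicate block, 8399 genes were called in place of 8531, and the members again numbered 8 higher and 14 lower, 2 and 3 under the threshold of the study, with 33 companion genes higher and 46 lower. Whether Hyou1, Derl2 and Stc2 passed the threshold changed when 1 library was left out, as given with their values.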
